A study of Rattus norvegicus with 40 samples.

Results

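Hippocampal slices of aged impaired (AI) rats that received 1 Hz repetitive transcranial magnetic stimulation (rTMS) were compared with sham slices of the same rats. The comparison holds the 4 primary arrays of the AI 1 Hz group and the 4 primary arrays of the AI sham group, which is 8 of the 40 arrays and of the 36 primary arrays of the study, and leaves out repeat hybridizations. Members were chosen by their sample titles, and arrays were paired by the number of the rat. All 4 rats were male Long-Evans rats without genetic change, aged 25 to 26 months in the sample labels and 24 to 25 months in the protocol. They were classed as impaired because they located a hidden platform in a water maze less well than young rats did. Slices of both groups lay in artificial cerebrospinal fluid, with the stimulator at 15% of its maximum output, 1 cm from the coil for 1 Hz and 20 cm from it for sham. RNA was collected after 2 h of rest by the protocol and after 1 h by the labels. Serial slices of each hippocampus were shared out among the dishes, so the sham and 1 Hz dishes of a rat held different slices of the same hippocampus.

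In rTMS a brief magnetic pulse induces an electric field that can depolarize neurons, and trains near 1 Hz are used as a low-frequency protocol that often lowers cortical excitability. Neuronal activity is known to switch on immediate early genes such as *Fos*, *Egr1* and *Arc* within minutes to hours. The hippocampus is needed for spatial memory, and its principal neurons are the granule cells of the dentate gyrus and the pyramidal cells of CA1 and CA3.

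Each dish gave RNA for 1 Agilent array read in a single color, and 32562 of 45598 probes lay well above background on every array of at least 1 group and were tested. The share of features well above background was 74.2% to 83.5% on the sham arrays and 76.2% to 82.3% on the 1 Hz arrays. A level is the z-score of a probe within its array multiplied by the mean SD of the 36 primary arrays. A level of 0 is the average feature of an array. These units are called log2 units here, but a difference is close to a log2 fold change only where both arrays have a similar SD. In rat 2 the SD was 3.88 on the sham array and 4.63 on the 1 Hz array. The sham and 1 Hz arrays of rats 1, 3 and 4 shared a slide, whereas those of rat 2 lay on different slides. Each array's deviation from its group mean was correlated with those of arrays of other groups, across 32542 probes or slightly fewer, as a description. The sham array of rat 2 had a correlation of -0.0022 with the 1 Hz array of its own rat, whereas the same correlation was 0.44 in rat 1, 0.64 in rat 3 and 0.27 in rat 4. With 7 arrays of other rats on its slide, its correlation had a median of 0.50 (0.050 to 0.62). The main counts and most list medians below are therefore also given without rat 2, which leaves the 3 pairs that share a slide. Whether the slide or the identity of this array had a part in the values of rat 2 was not tested.

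**Figure D1:**
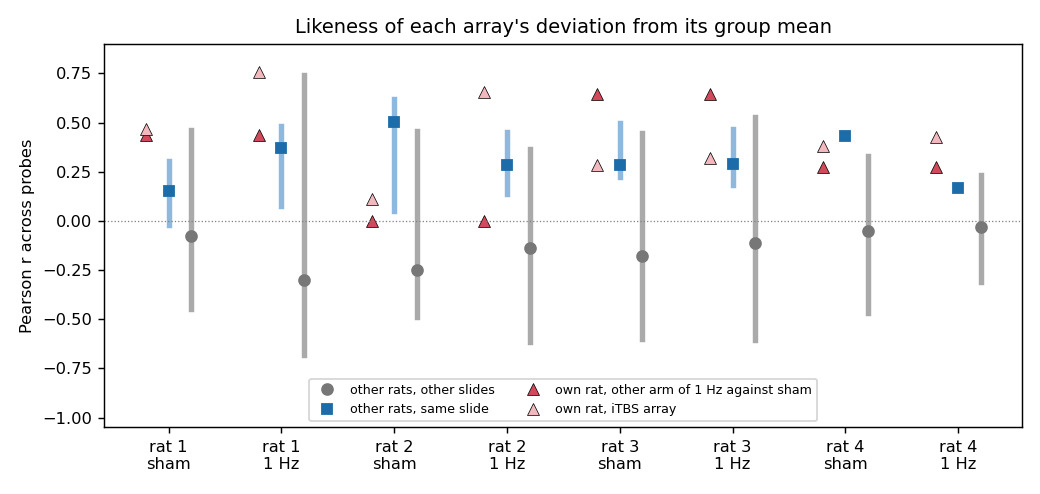
Pearson correlation across probes of each AI array's deviation from its group mean with that of other arrays, by rat and treatment (dimensionless). Red triangles are the other arm of the comparison in the same rat, pink triangles the iTBS array of the same rat, squares and circles the medians over other rats on the same and on other slides, and bars their range. The red triangles of rat 2 lie at -0.0022, below those of the other 3 rats.

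No probe differed between 1 Hz and sham slices of AI rats after adjustment. Genes for synaptic release (*Syt1*), calcium release (*Itpr1*), a heat shock protein (*Hspa1a*) and the amyloid precursor protein (*App*) had lower z-scores with 1 Hz. This held in 4 of 4 rats, by 0.35 to 0.69 log2 units on average. Genes such as *Prkd1* and *Nup50* were higher by 0.49 and 0.74, and none of these genes reached the threshold. With arrays scaled to their 75th percentile instead, *Syt1* was higher by 0.041 in rat 1 and *Itpr1* by 0.14 in rat 2. *Prkd1* and *Nup50* were then lower in rat 2, at -0.48 and -0.17. Under normexp and quantile normalization *Prkd1* and *Nup50* differed by 0.098 and 0.31. With the same normalization *App* and *Itpr1* differed by -0.13 and -0.29, and *Syt1* and *Hspa1a* by -0.46 and -0.73. Fitted with 1 mean for each of the 9 groups of the study, limma called 0 of 32562 probes (0%) at an adjusted p under 0.05. Without adjustment 137 probes (0.421%) were higher and 91 (0.279%) lower with 1 Hz at a p under 0.05. When the rat was included as a block, 0 probes passed again, the smallest adjusted p was 0.918, and the unadjusted counts were 811 (2.49%) and 500 (1.54%). Scaling each array to its 75th percentile turned the unadjusted counts to 17 higher and 176 lower, or 137 higher and 1316 lower with the block, so the split between higher and lower probes depended on the scaling. Since no probe passed, no gene is described below as changed, and values are given as they were measured.

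The AI rats did not share a direction. The median change over all tested probes was -0.087 in rat 1, 0.28 in rat 2, 0.055 in rat 3 and 0.082 in rat 4. Across probes the SD of the change was 0.42, 0.79, 0.34 and 0.62 in the same order. With z-scores the pair on different slides, rat 2, had the widest spread of changes, and 14.6% of its probes differed by more than 1 log2 unit between 1 Hz and sham, compared with 2.79% in rat 1, 2.24% in rat 3 and 10.0% in rat 4. As a description across 32542 probes, the changes of rat 1 ran against those of each of the other rats, with correlations of -0.46 with rat 2, -0.35 with rat 3 and -0.26 with rat 4. Rats 2 and 3 had a correlation of 0.48, rats 3 and 4 of 0.14, and rats 2 and 4 of 0.012. Probes share a library and a signal level, so they are not independent points.

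Under the 75th percentile scaling the medians were 0.16, -0.25, -0.060 and -0.087 in rats 1 to 4, the opposite sign of the z-score medians in each rat. The scalings were farther apart for weak signals than for strong ones. In the dimmest of 5 bins of probes by level the medians under the 75th percentile scaling were 0.64, -1.14, -0.37 and -0.21, beside 0.089, 0.17, -0.045 and 0.075 with z-scores. In the brightest bin they were 0.045, 0.035, 0.0091 and -0.093, beside 0.032, -0.067, -0.0079 and -0.031. The correlation between rats kept its sign for all pairs under this scaling, with -0.54 for rats 1 and 2 and 0.59 for rats 2 and 3. After normexp background correction and quantile normalization the SD of the change was 0.25, 0.39, 0.16 and 0.42, so that rat 4 had the widest spread.

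**Figure D2:**
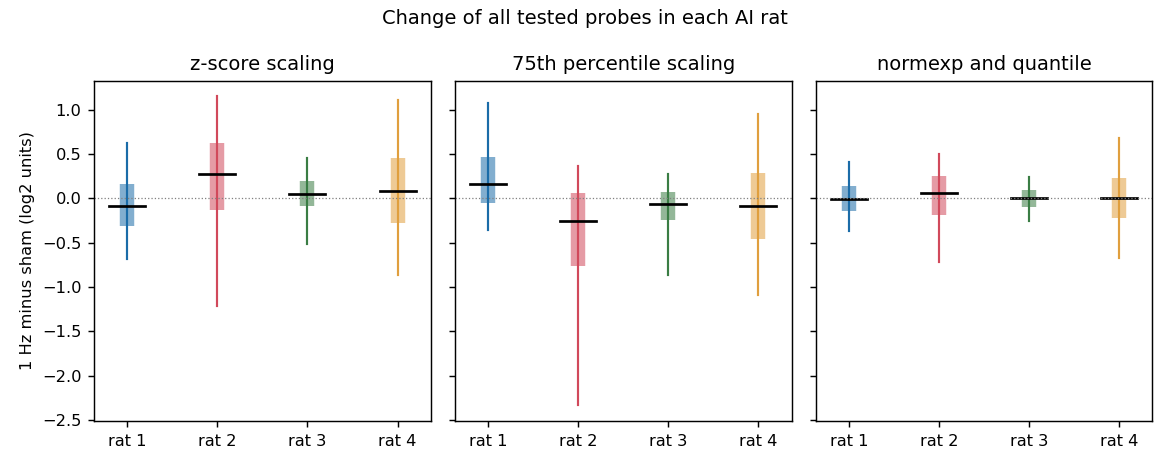
Change of all 32562 tested probes, 1 Hz minus sham in log2 units, in each AI rat (x axis) under each of the scalings compared. Thick bars span the 25th to 75th percentile, thin lines the 5th to 95th, and black marks the median. The median of rat 2 is 0.28 under z-scores and -0.25 under the 75th percentile, and rat 3 has the narrowest spread in every panel.

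Of all tested probes, 1400 were higher on the 1 Hz array in 4 of 4 rats (4.3%) and 521 were lower in 4 of 4 (1.6%). Without rat 2, 2646 were higher (8.13%) and 2275 lower (6.99%) in the other 3 rats. The 4 arrays of 1 group lay entirely above the 4 of the other for 95 probes with 1 Hz above sham (0.292%) and for 31 probes with 1 Hz below sham (0.0952%).

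Among genes that were higher in all 4 rats, *Prkd1*, which encodes the signaling kinase protein kinase D1, had sham levels of -1.72, -1.19, -1.73 and -2.07 and 1 Hz levels of -1.59, -0.70, -1.14 and -1.31 in rats 1 to 4. Its groups overlapped, and its difference was 0.49 (SE 0.23, unadjusted p = 0.0372 in limma), or 0.49 (SE 0.18) with the block and without rat 2. *Nup50*, a component of the nuclear pore, had sham levels of -3.34, -3.35, -2.99 and -2.87 and 1 Hz levels of -2.93, -2.23, -2.22 and -2.22. Its 1 Hz arrays of rats 2, 3 and 4 lay above every sham array and that of rat 1 did not, with a difference of 0.74 (SE 0.36). *Acat2*, a thiolase that makes acetoacetyl-CoA in the cytosol, was measured at 3.76, 4.17, 3.88 and 2.88 in sham and 3.77, 4.33, 4.21 and 4.02 in 1 Hz slices. Most of its difference of 0.41 (SE 0.20) came from rat 4, whose sham array was the lowest, and its 3 other tested probes gave 0.35 to 0.63.

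The other genes of this kind were *Eaf2*, which encodes a transcription elongation factor (0.46), *Ephb4*, an ephrin receptor (0.66), the mitochondrial nuclease gene *Endog* (0.42), *Ptcd2* (0.40), *Scgb3a1* (0.52), the synaptotagmin gene *Syt13* (0.46) and the Polycomb gene *Pcgf1* (0.35). The 1 Hz arrays of *Ephb4*, *Ptcd2*, *Scgb3a1* and *Pcgf1* lay above all of their sham arrays. Of the 10 genes, 2 (*Acat2* and *Endog*) were higher in all 4 rats also under the 75th percentile scaling, while the other 8 were lower in rat 2 under it. Leaving out rat 4, where its change was 1.35, took *Syt13* to 0.16. They were chosen by the smallest p among genes with the same direction in all rats, so their direction is not evidence of its own.

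Among genes that were lower in all 4 rats, *Abca5*, a lipid transporter of lysosomes, had the smallest p. Its sham levels were -1.68, -1.71, -1.99 and -1.96, and its 1 Hz levels were -2.18, -2.05, -2.64 and -2.30. The groups did not overlap, and the difference was -0.45 (SE 0.16, unadjusted p = 0.00716 in limma, and 0.0013 with the block and without rat 2). Its second tested probe, however, gave 0.30, in the opposite direction. *Hspa1a*, an inducible HSP70 chaperone, had sham levels of 4.10, 4.64, 3.74 and 3.33 that spread widely and 1 Hz levels of 3.35, 3.19, 3.25 and 3.25 that were nearly equal. The difference was -0.69 (SE 0.30) and its other probe gave -0.47. Leaving out rat 2, whose sham array was the highest, gave -0.44 (SE 0.21) with the block. As a list, 24 tested heat shock and stress genes, *Hspa1a* among them, had a median difference of -0.054, or 0.031 without rat 2. For all tested genes these medians were 0.082 and 0.033.

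*Syt1*, the calcium sensor of synaptic vesicle release, had sham levels of 3.77, 4.30, 4.26 and 4.61 and 1 Hz levels of 3.72, 3.44, 4.11 and 3.70, a difference of -0.49 (SE 0.20). The rats differed in size of the change, which was -0.048 in rat 1 and -0.91 in rat 4, and its second probe gave 0.067. *Itpr1*, a calcium release channel of the endoplasmic reticulum, had sham levels of 6.33, 6.52, 6.55 and 7.52 and 1 Hz levels of 6.24, 6.31, 6.39 and 6.28. Its sham array of rat 4 stood apart, and the change was -1.24 in that rat and between -0.21 and -0.097 in the others. *App* had sham levels of 7.56, 8.20, 7.76 and 7.95 and 1 Hz levels of 7.41, 7.47, 7.59 and 7.58, a difference of -0.35 (SE 0.17), with -0.071 for its other probe. As a group, the 8 neuron markers, which include *Syt1*, had a median difference of 0.14 with all rats and 0.26 without rat 2, and 4, 1, 4 and 6 of them were higher in rats 1 to 4.

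*Eif2s2*, a translation initiation factor subunit (-0.37), *Crim1*, a BMP-binding membrane protein (-0.54), the tetraspanin gene *Tspan13* (-0.33), *Spon1*, an extracellular matrix protein (-0.39), and *1700001K19Rikl* (-0.72) complete the 10 genes. The second probe of *Eif2s2* gave 0.32. *Crim1* differed by -0.31 without rat 4 and *Eif2s2* by -0.23 without rat 2. Of the 10, 6 were lower in all 4 rats also under the 75th percentile scaling, and *Syt1*, *Itpr1*, *Tspan13* and *1700001K19Rikl* were not. All 20 genes had an adjusted p that rounds to 1 in limma.

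**Figure D3:**
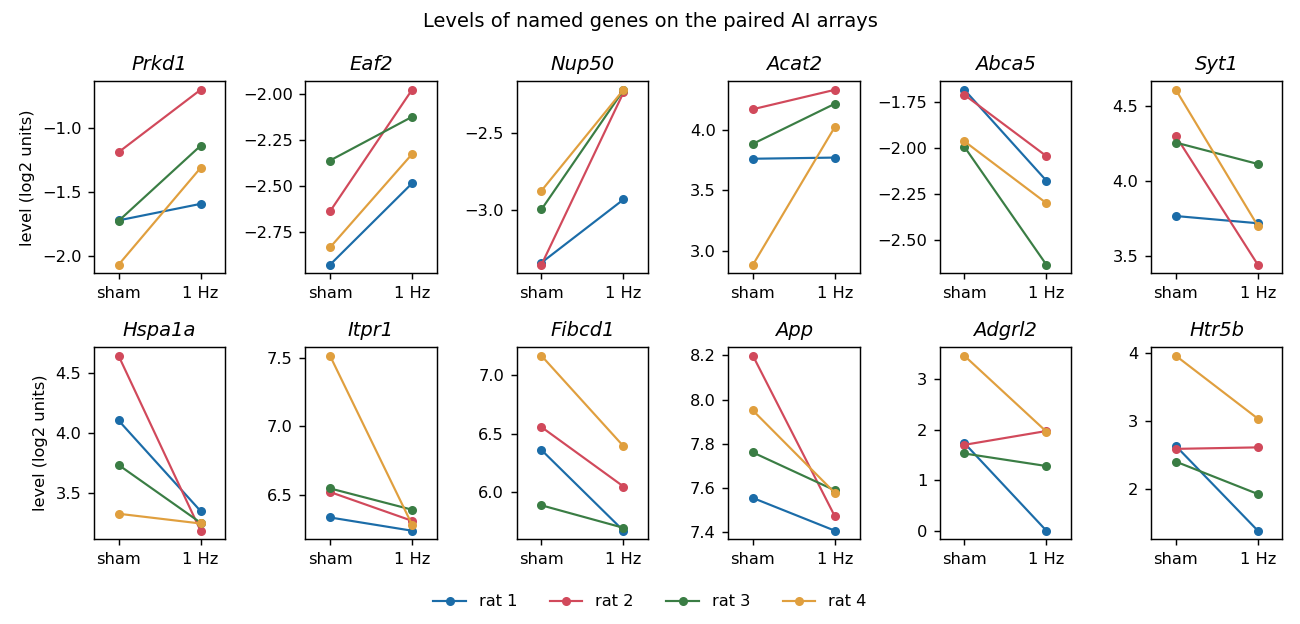
Level in log2 units (y axis, a scale of its own in each panel) of 12 genes on the sham and 1 Hz arrays of each AI rat, 1 line for each rat. In *Itpr1* the sham array of rat 4, at 7.52, stands above the other arrays. With these z-score levels, the line of rat 2 runs up or stays level in *Adgrl2* and *Htr5b* while those of the other rats run down. Under the 75th percentile scaling both genes were lower in rat 2.

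Without rat 2, the block fit again gave *Abca5* the smallest p among genes that were lower in the other 3 rats, followed by genes that had not stood among those above. *Adgrl2*, an adhesion receptor of the latrophilin family found on hippocampal neurons, had sham levels of 1.74, 1.70, 1.53 and 3.47 and 1 Hz levels of 0.0002, 1.98, 1.28 and 1.97. It was lower in rats 1, 3 and 4, by 1.74 in rat 1 and 0.25 in rat 3, and higher by 0.27 in rat 2, and its difference was -1.16 (SE 0.33, unadjusted p = 0.00241 in limma) without rat 2 and -0.80 (SE 0.40) with all rats. *Htr5b*, a serotonin receptor gene, was measured at 2.63, 2.58, 2.40 and 3.95 in sham and 1.38, 2.60, 1.92 and 3.03 in 1 Hz slices. Its difference was -0.88 (SE 0.27) without rat 2, and in rat 2 both arrays were almost equal. *Ndst3*, a heparan sulfate modifying enzyme, gave -0.63 and the complement regulator *Cd46* -0.48 without rat 2. With all rats the second probes of *Ndst3* and *Adgrl2* gave -0.96 and -0.84, and the 2 other tested probes of *Cd46* gave -0.022 and 0.25. Higher in the 3 rats were *Atoh8*, a basic helix-loop-helix factor (0.53), the crystallin gene *Crybb1* (0.45), *C19h1orf198* (0.59), *Pdk2*, a kinase that inhibits pyruvate dehydrogenase (0.43), and *Gpkow* (0.38). In rat 2, *Pdk2*, *Gpkow*, *Atoh8* and *C19h1orf198* were lower, by 0.48, 0.77, 0.25 and 0.54. Under the 75th percentile scaling 5 of 5 genes that were higher and 4 of 5 that were lower kept their direction in the 3 rats. In rat 2 this scaling gave -0.19 for *Adgrl2*, -0.31 for *Htr5b*, -0.44 for *Cd46* and 0.10 for *Ndst3*. *Crybb1*, higher in rat 2 with z-scores, was at -0.62 there.

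No difference in immediate early genes passed the test. *Fos*, whose product is a subunit of the AP-1 transcription factor, had sham levels of 3.92, 3.95, 3.49 and 3.78 and 1 Hz levels of 3.47, 3.69, 3.75 and 3.45, with a difference of -0.20 (95% interval -0.60 to 0.21). *Egr1*, a zinc finger transcription factor, had 4.94, 5.22, 5.07 and 5.36 in sham and 5.04, 4.64, 5.14 and 4.89 in 1 Hz slices, a difference of -0.22 (-0.74 to 0.29). In both genes the groups overlapped. For *Arc*, which acts in the trafficking of AMPA receptors, the sham levels were 4.39, 4.27, 3.67 and 4.94 and the 1 Hz levels 4.41, 3.89, 3.75 and 4.05. The difference was -0.29 (-0.80 to 0.22), and the rats were split, with *Arc* slightly higher in rats 1 and 3 and lower in rats 2 and 4. The differences were 0.043 for *Junb* (-0.68 to 0.77), -0.094 for *Nr4a1* (-0.52 to 0.33), 0.43 for *Bdnf* (-0.34 to 1.21) and 0.60 for *Npas4* (-0.39 to 1.58), all with intervals that held 0. *Npas4* lay near background and was well above it on 6 of the 8 arrays.

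Of 32 immediate early genes tested, 0 had an unadjusted p under 0.05 in limma with or without the block, beside 0.592% of all genes without and 3.69% with it, so a count of 0 is close to that background. Their median difference was -0.12 (-0.12 without rat 2), beside 0.082 for all 13186 tested genes (0.033). None was higher in all 4 rats, while 5 were lower in all 4, beside 4.3% and 1.6% of all probes. By rat, 17, 12, 17 and 7 of the 32 were higher, and 25 were lower in rat 4. For all tested genes the share that was higher was 35.5%, 68.8%, 64.1% and 61.7% in rats 1 to 4, which is the background for every count by rat below.

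Receptors and channels of neurons gave median differences close to 0. They were -0.014 for 25 glutamate receptor genes, 0.078 for 24 genes of GABA signaling, 0.024 for 16 cholinergic genes and -0.025 for 33 voltage-gated channel genes, or 0.042, 0.057, 0.059 and -0.036 in the same order without rat 2. Single members past an unadjusted p of 0.05 in limma with the block were few. *Gabra2*, a GABA-A receptor subunit, was higher in 4 of 4 rats by 0.23 to 0.35, a difference of 0.32 (SE 0.14). Its change in rat 2 was -0.0077 under the 75th percentile scaling. *Chrm5*, a muscarinic receptor, had sham levels of -2.96, -2.44, -2.74 and -2.85 and 1 Hz levels of -3.19, -4.02, -3.82 and -4.36. Its groups did not overlap, and it was well above background on 4 sham arrays but on 1 of the 4 1 Hz arrays, so the lower levels are weak signals. Under the 75th percentile scaling *Chrm5* was higher by 0.34 in rat 1.

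Synaptic protein genes went opposite ways in different rats. Of 30 tested, 23 were higher in rat 1, 7 in rat 2, 14 in rat 3 and 17 in rat 4, with medians of 0.19, -0.45, -0.053 and 0.41. Leaving out rat 2 moved their median difference from -0.079 to 0.20. Among 29 genes of neurotrophin and growth factor signaling, the neuropeptide precursor gene *Vgf* was lower in 4 of 4 rats, by 0.063 to 0.58 (-0.37, SE 0.17 with the block, unadjusted p = 0.0381 in limma), and the median of the list was -0.019 (-0.033 without rat 2).

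Markers of CA1 pyramidal cells were lower in the 3 rats whose arrays shared a slide. All 6 were lower in rat 1 (median -0.92), 5 of 6 in rat 3 (-0.18) and all 6 in rat 4 (-0.45), while 4 of 6 were higher in rat 2 (0.11). The median difference was -0.45 with all rats and -0.58 without rat 2, and under the 75th percentile scaling it was -0.46 and -0.59. *Fibcd1*, a marker of CA1, had sham levels of 6.36, 6.56, 5.89 and 7.17 and 1 Hz levels of 5.67, 6.05, 5.70 and 6.39, lower in 4 of 4 rats by 0.19 to 0.77. The groups overlapped, the difference was -0.54 (SE 0.22, unadjusted p = 0.0242 in limma with the block), and the 2 other tested probes of the gene gave -0.090 and 0.084. In bulk RNA, fewer cells of a type and less RNA in each cell cannot be told apart. The dishes also held different serial slices, and the part of this in the CA1 values was not tested. Medians of the 3 tested CA3 markers were 0.21, 0.060, 0.13 and 1.71, and those of 6 dentate granule cell markers 0.45, 0.027, -0.46 and -0.017, so the regional markers differed between dishes of a rat in several directions.

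Astrocyte markers were higher in the same 3 rats. Of 10 genes 10, 9 and 9 were higher in rats 1, 3 and 4, with medians of 0.23, 0.053 and 0.50, and 1 of 10 was higher in rat 2, at a median of -0.20. In rats 1, 3 and 4 together 8 of 10 were higher each time, beside 8.13% of all probes. *Aldh1l1*, a folate enzyme used as an astrocyte marker, was higher in 4 of 4 rats, by 0.064, 0.22, 0.35 and 0.86 (0.37, SE 0.14 with the block, unadjusted p = 0.0142 in limma). Its change in rat 2 was -0.10 under the 75th percentile scaling. Without rat 4 the median difference of the list was 0.028.

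Myelin genes separated the rats. In rat 1, 19 of 23 were lower (median -0.31), and in rats 3 and 4, 21 and 20 of 23 were higher (0.19 and 0.59), while rat 2 had 14 lower (-0.055). *Mog*, a surface protein of myelin, had sham levels of 4.65, 4.61, 3.90 and 3.53 and 1 Hz levels of 4.30, 4.58, 4.14 and 4.14, so the sham arrays of rats 3 and 4 were the lowest and the 1 Hz arrays lay close together. *Mbp*, myelin basic protein, ran the other way in rats 1 and 4, with changes of 0.83 and -0.88, and its second probe differed in sign from the first over all rats (0.36 and -0.41). None of the 23 genes was higher or lower in all 4 rats, none had an unadjusted p under 0.05, and the median difference was 0.080 (0.17 without rat 2). The 12 oligodendrocyte markers, all of them also in the myelin list, gave -0.32, -0.063, 0.20 and 0.57.

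Genes of antigen presentation were far apart among AI rats. MHC class II molecules present peptides to helper T cells, and their invariant chain is encoded by *Cd74*. On the sham arrays *Cd74* was at 8.82, 2.56, 3.01 and 5.30 and on the 1 Hz arrays at 9.01, 3.23, 3.19 and 7.69 in rats 1 to 4. Rat 1 had high levels and rats 2 and 3 low levels under both treatments, and only in rat 4 were the 2 dishes far apart, by 2.38. *RT1-Da*, a class II chain, had sham levels of 7.34, -0.018, 0.64 and 3.16 and 1 Hz levels of 7.22, 1.04, 0.95 and 5.67. For *RT1-Bb* the change in rat 4 was 2.79 and for *RT1-Db1* 2.52, whereas in the other rats it ran from -0.37 to 0.94 and from -0.17 to 0.24. These RT1 genes, like *Cd3d*, *Mbp*, *Hbb* and *Tmem212*, were singled out after their values were seen. Of 8 class II genes tested, 1 was higher in rat 1, 7 in rat 2, 6 in rat 3 and 8 in rat 4. Their median difference was 0.51 with all rats, 0.58 without rat 2 and 0.13 without rat 4. Under the 75th percentile scaling the median of rat 2 turned from 0.51 to -0.12. With z-scores *Cd74* was higher on the 1 Hz array in every rat. Its 95% interval in the fit without a block ran from -2.55 to 4.26. That width includes the spread between rats, so it does not describe the paired changes.

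The class II levels set rat 1 apart from the other rats under both treatments. Rat 4 had the widest gap between its dishes. The mean level of the 8 genes was 4.73 on the sham array of rat 1, the highest of the 36 primary arrays, and 4.44 on its 1 Hz array. It was 0.11 and 0.65 in rat 2, 0.56 and 0.61 in rat 3, and 1.74 and 3.42 in rat 4, beside a median of 0.062 over the 36 arrays. Of 9 T cell markers 5 were tested, with a median difference of -0.14 (-0.096 without rat 2), and 2 were not above background on any of the 8 arrays. Of these 5 markers 1, 1, 2 and 2 were higher in rats 1 to 4. The median of rat 1 turned from -0.30 to 0.16 under the 75th percentile scaling. Only *Cd3d* and *Cd3e*, parts of the T cell receptor complex, were lower in 4 of 4 rats. *Cd3d* was well above background on 8 arrays and differed by -0.14, whereas *Cd3e*, above it on 5 of 8 arrays, differed by -1.96 (SE 0.92 with the block).

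**Figure D4:**
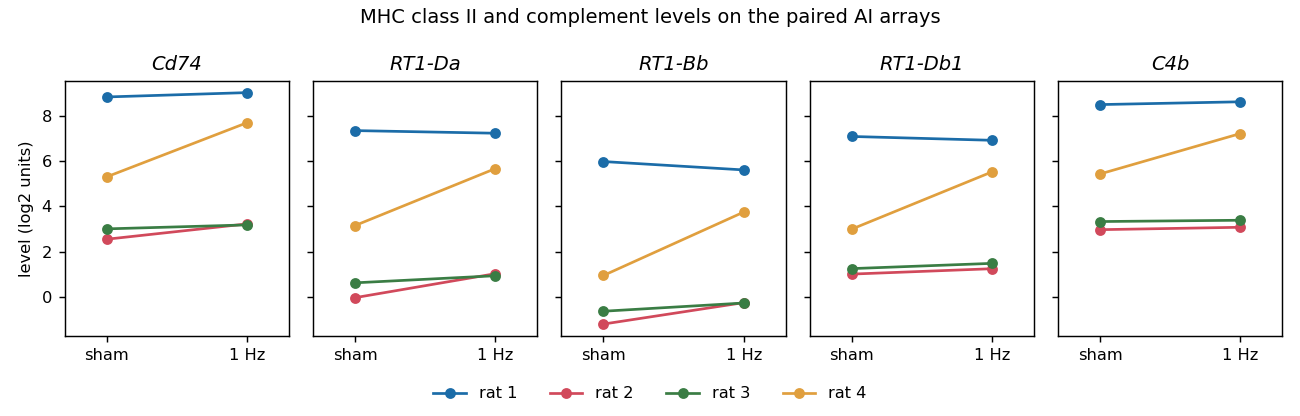
Level in log2 units of 4 genes of MHC class II antigen presentation and the complement gene *C4b* on the sham and 1 Hz arrays of the AI rats, 1 line for each rat. Rat 1 stays high and rats 2 and 3 stay low, while the lines of rat 4 run up, from 5.30 to 7.69 in *Cd74*.

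The promoters of 3 class II genes that were far apart between the dishes of rat 4 are shown because transcription of this family is known to run through a shared set of promoter boxes, one of which, the Y box, binds the factor NF-Y. Sequences are from RefSeq (GRCr8), 250 bases before to 50 bases after the gene start, 5′ to 3′ on the strand of the gene, with the letters TGATTGG, searched on both strands, in capitals.
RT1-Da (chr20:4515165-4515464, plus strand): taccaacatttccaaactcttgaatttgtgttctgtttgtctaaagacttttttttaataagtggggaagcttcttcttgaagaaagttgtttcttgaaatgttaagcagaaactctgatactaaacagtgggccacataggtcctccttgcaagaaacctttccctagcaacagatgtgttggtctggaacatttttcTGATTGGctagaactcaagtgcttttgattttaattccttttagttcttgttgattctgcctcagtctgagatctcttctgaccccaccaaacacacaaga
RT1-Bb (chr20:4604069-4604368, minus strand): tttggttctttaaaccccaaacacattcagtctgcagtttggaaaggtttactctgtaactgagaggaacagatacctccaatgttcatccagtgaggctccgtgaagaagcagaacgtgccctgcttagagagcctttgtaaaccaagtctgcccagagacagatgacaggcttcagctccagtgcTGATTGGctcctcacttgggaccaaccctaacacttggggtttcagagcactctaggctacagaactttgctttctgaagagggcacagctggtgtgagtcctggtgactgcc
RT1-Db1 (chr20:4560113-4560412, minus strand): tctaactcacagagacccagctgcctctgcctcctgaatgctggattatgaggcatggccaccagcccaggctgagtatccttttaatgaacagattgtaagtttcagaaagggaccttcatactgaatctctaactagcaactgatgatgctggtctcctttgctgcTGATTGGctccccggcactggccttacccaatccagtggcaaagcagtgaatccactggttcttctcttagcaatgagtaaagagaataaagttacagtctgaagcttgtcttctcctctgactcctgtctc
Of 8 class II promoters of the list found in that table, 7 held these letters (87.5%), all but that of *Cd74*, and 2364 of all 33469 promoters held them (7.06%). This describes the sequence and says nothing about the factor in these slices.

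Several inflammatory genes that the study selected for slices also differed mainly in rat 4. *C4b*, a complement component, was at 8.48, 2.98, 3.33 and 5.43 in sham and 8.61, 3.08, 3.39 and 7.21 in 1 Hz slices. *Il1b*, a cytokine, was at 7.69, 3.41, 4.09 and 3.74 in sham and 7.53, 3.13, 3.23 and 6.29 in 1 Hz slices. Both were high in rat 1 whatever the treatment, and both differed most in rat 4, by 1.78 and 2.55, while *Il1b* was lower in rats 1 to 3, by 0.86 in rat 3. *Tnfsf9*, a ligand of the TNF family, was 2.68 higher in rat 4 and between -0.018 and 0.13 in the others, with a difference of 0.70 (95% interval -0.39 to 1.79). Of 34 tested genes that the study had picked from these samples, 29 were higher in rat 4 (median 1.10), and 9, 21 and 19 in rats 1 to 3 (-0.21, 0.099 and 0.077). Their median difference was 0.22 with all rats, 0.27 without rat 2 and -0.051 without rat 4. Because the list was chosen on these samples, its direction is not independent evidence.

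The wider lists of 23 complement genes and 39 cytokine and inflammatory genes had medians in rat 4 of 0.45 and 0.38 and in rat 1 of -0.19 and -0.20. Their median differences were 0.18 and 0.12 with all rats and 0.098 and 0.076 without rat 2, and the complement median of rat 2 turned from 0.26 to -0.18 under the 75th percentile scaling. *Il6* was lower in 4 of 4 rats (-0.74, SE 0.32 with the block) at levels below the array average, and the acute-phase gene *Lcn2* was lower in 4 of 4 (-0.37, SE 0.16). Under the 75th percentile scaling *Il6* stayed lower in every rat, and *Lcn2* was higher by 0.19 in rat 1. The 10 microglia markers had medians of -0.24, 0.26, 0.030 and -0.24, so in rat 4 they ran opposite to the class II genes, and their median difference was 0.0072 with all rats and -0.15 without rat 2.

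In rat 4 genes of blood and vessels were lower on the 1 Hz array. All 7 tested blood markers were lower there (median -0.99), and *Hbb*, a beta globin, had sham levels of 2.51, 2.52, 1.74 and 4.76 and 1 Hz levels of 2.75, 2.96, 1.77 and 3.76. The mean level of the blood markers on the sham array of rat 4, 3.65, was the highest of the 36 arrays, and on its 1 Hz array it was 2.67. Of 10 endothelial markers 9 were lower in rat 4 (-0.80), beside 3, 4 and 3 in rats 1 to 3, and 8 pericyte and smooth muscle markers had a median of -0.53. Without rat 4 the median difference moved from -0.17 to 0.15 for blood and from -0.16 to 0.095 for endothelium, and without rat 2 it was -0.24 and -0.23. The part of these cells in the other values of rat 4 was not tested.

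Ependymal markers, from the ciliated lining of the ventricles, were mainly lower in rat 1 and, with z-scores, higher in the others. *Tmem212* was at 1.55, -0.64, -1.37 and -2.49 in sham and -0.37, 0.97, -0.06 and -0.84 in 1 Hz slices, so its change was -1.92 in rat 1 and 1.31 to 1.64 in the other 3. Of 8 ependymal markers 4 were tested, with medians of -1.02, 0.50, 0.33 and 0.89. Choroid plexus markers, of which 7 of 17 were tested and 6 were not above background on any of the 8 arrays, had medians of -0.17, 0.50, -0.043 and -0.41. In rat 2 the 75th percentile scaling turned both medians, to -0.31 for ependyma and -0.32 for choroid plexus. Without rat 2 the median differences were 0.12 and -0.20.

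Genes of translation and respiration moved with the rat and with the scaling. Of 83 ribosomal protein genes, 77 were higher in rat 1 and 73, 80 and 78 were lower in rats 2, 3 and 4, with medians of 0.36, -0.42, -0.17 and -0.59. Under the 75th percentile scaling the medians were 0.14, 0.15, -0.036 and -0.57, so the direction in rat 2 turned. The medians of 16 ATP synthase genes were 0.24, -0.31, -0.091 and -0.067, and those of 42 NADH dehydrogenase genes 0.10, -0.18, -0.027 and 0.11.

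**Figure D5:**
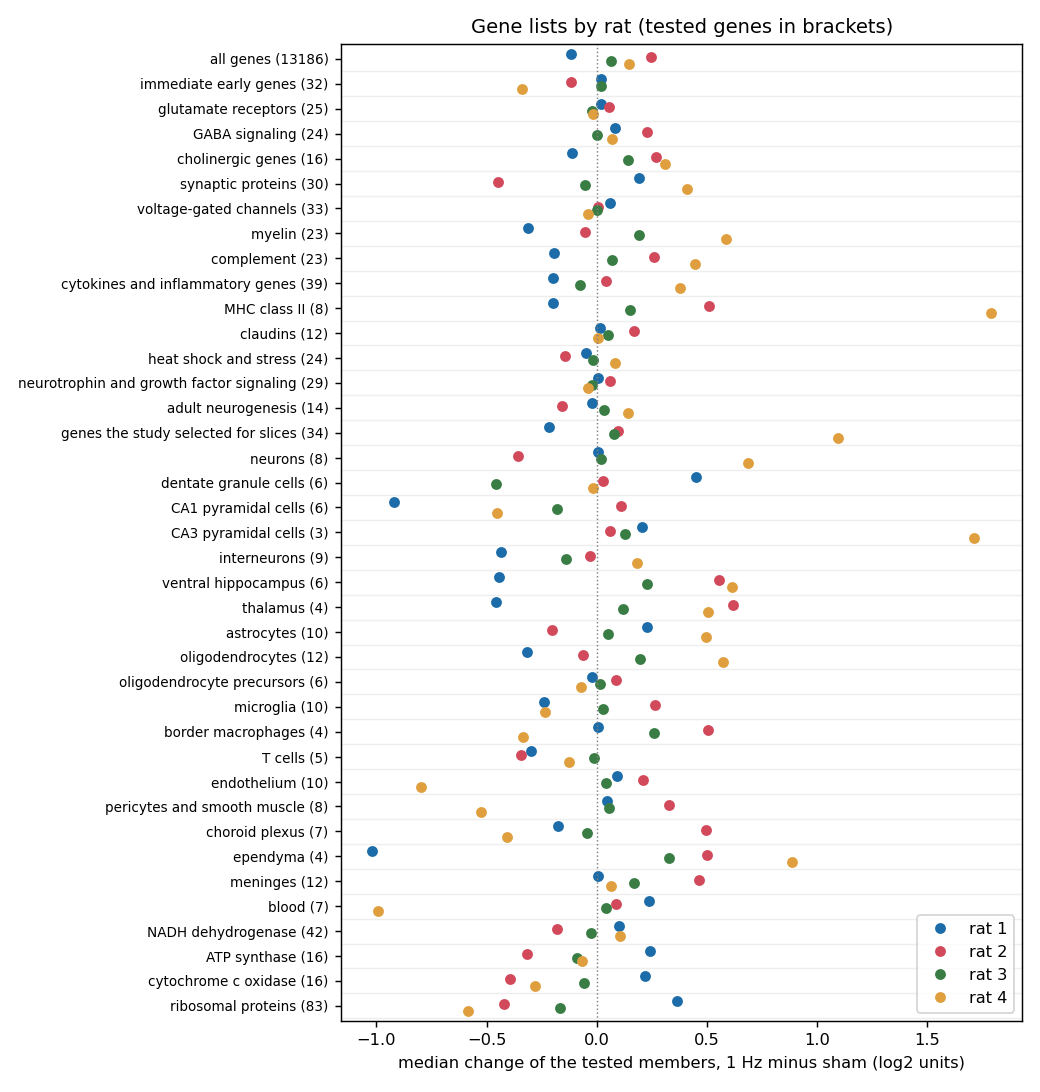
Median change, 1 Hz minus sham in log2 units, of the tested genes of each list in each AI rat, with the number of tested genes in brackets and all genes in the first row. The points of rat 4 for MHC class II (1.79), CA3 markers (1.71) and the genes the study selected (1.10) lie farthest to the right, and the points of rat 1 lie left of those of rat 4 in most immune and myelin lists.

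With iTBS, a theta burst protocol given to other slices of the same AI rats and compared with the same sham arrays, the class II median was -0.34, 0.0078, 0.57 and 1.28 in rats 1 to 4, beside -0.20, 0.51, 0.15 and 1.79 with 1 Hz. For the CA1 markers the iTBS medians were -0.16, -0.13, 0.15 and -0.81. For the blood markers they were -0.47, 0.11, 0.12 and -0.77. Both comparisons use the same sham array of each rat, so values that are alike in 1 rat are not separate observations.

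The change with 1 Hz in AI slices was compared with that in slices of young rats and of aged unimpaired (AU) rats by an interaction term, in which no array is shared. In limma 0 of 32562 probes (0%) differed from young and 0 (0%) from AU at an adjusted p under 0.05. At an unadjusted p under 0.05, 149 were higher and 97 lower against young, and 151 and 51 against AU. The 75th percentile scaling turned these counts to 31 and 202 against young and 17 and 157 against AU, so this split also depended on the scaling. *App* was lower in AI rats and higher in all 4 AU rats, by 0.011 to 0.35, a difference between the changes of -0.53 (unadjusted p = 0.0403 in limma), and the difference from young rats was -0.59. *Fibcd1* differed by -0.94 from AU rats (unadjusted p = 0.0231 in limma) and by -0.49 from young rats. For *Fos* the differences were -0.32 from young and -0.23 from AU rats, both within their error. None of these passed the adjustment. *App* and *Fibcd1* were named for their values in AI rats, so the AI part of their differences was not independent of the choice. The other tested probe of *App* gave a difference of -0.071 in AI rats.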

How the data were processed

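RNA of hippocampal slices was measured on one-color Agilent rat arrays. The deposited scanner files hold processed signal intensity made by the authors with Feature Extraction 12.0.3.1, and the deposited table holds the authors' z-score of each probe within its array, log2-based. Recomputed z-scores differed from the deposited score by at most 0.005. The level used here is the z-score times 4.158, the mean SD of 36 primary arrays (3.4184 to 4.6332). Control features were left out, and 58717 features gave 45598 probes, of which 21109 had a RefSeq symbol (GRCr8), for 16581 genes. A gene was represented by its brightest probe. The number of arrays limits the precision.

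Contrasts were fitted with limma 3.58.1 in R 4.3.3 to 9 group means without a block and adjusted by Benjamini-Hochberg. Rat numbers in the titles pair the arrays, since slices of 1 rat were divided among treatments, and the correlation within a rat was 0.44. The fit with the rat as a block, leave-one-out fits and other scalings (75th percentile, normexp with an offset of 50 on median signals, since mean signals were not used here) were alternatives. On simulated data of 32136 probes with 200 changed by 1 to 4 log2 units, the group-mean fit recovered 36% of the changes of 1 and 80% of those of 2, with 7 false calls, and the block fit 32% and 72%, with 6. Smaller changes were not simulated. The simulated noise was independent between arrays, without a part shared by a rat or a slide. It therefore cannot tell which fit suits the real arrays better, where the correlation within a rat was 0.44.

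Named genes had a probe well above background on all 8 arrays: the 10 higher and 10 lower with the smallest p among those with 1 direction in 4 rats, and 5 and 5 from the block fit without rat 2. List members with an unadjusted p under 0.05, the immediate early genes described and the genes the study selected could also be named. Members and the 38 lists were chosen with earlier results of these data known. Figures were drawn with matplotlib 3.10.9.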

Additional observations from a re-analysis of the deposited data

Results flagged for a closer look

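In 14 of 148 groups of 4 arrays, 1 array stood apart from the others by a gap that took up most of the range of its group (Dixon test). Chance flags about 1 in 20 groups. On sham arrays of rat 4 these were high levels of *Crim1* (6.391), *Adgrl2* (3.471), *Htr5b* (3.952) and the blood markers (mean level 3.652), and a low mean level of the claudins (0.718). On the 1 Hz array of rat 1 *Nup50* (-2.929), *Syt13* (-0.773), *Spon1* (4.626) and the voltage-gated channels (2.591) were low. On 1 Hz arrays *Ptcd2* (1.005) and the thalamus markers (1.415) were high in rat 2, the genes of adult neurogenesis were low in rat 4 (1.645), and cytochrome c oxidase was high in rat 3 (5.502). The sham array of rat 1 stood high for the genes the study selected (3.573).

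In 72 gene comparisons, 3 had every AI rat in 1 direction and every rat of the other group in the opposite one. *App* was lower in AI and higher in AU rats, and the changes differed by -0.526 (unadjusted p = 0.0403 in limma). *Crybb1* was higher in AI and lower in both other groups, by 0.645 against young (unadjusted p = 0.21 in limma) and 0.566 against AU rats (unadjusted p = 0.27 in limma). Its AI direction depended on the scaling, since in AI rat 2 it was at -0.617 under the 75th percentile. None passed adjustment over all probes. Most genes compared had been chosen because the AI rats shared a direction, so that part of the pattern was fixed by the choice.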

How the results depend on the processing

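No setting gave a probe with an adjusted p under 0.05 in any of the 19 limma fits of the 1 Hz and sham arrays. The smallest adjusted p ranged from 0.357 (rat as a random block) to 1, and for the fit with the rat as a fixed block it was 0.918. Counts at an unadjusted p under 0.05, 137 higher and 91 lower in the group-mean fit, depended on the pairing. They were 811 and 500 with the rat as a block, 722 and 475 as a random block, 281 and 154 with a block over the 8 arrays alone, and 378 and 291 with the block and without rat 2. They also depended on scaling and filter, with 17 and 176 after 75th percentile scaling, 62 and 99 after normexp and quantile normalization, 255 and 178 without a filter on dim probes, 64 and 38 with the strict filter, and 317 and 426 with the slide as a block. The split was 60.1% higher in the group-mean fit, 8.81% under the 75th percentile, 38.5% under normexp and 42.7% with the slide block. Combinations chosen after seeing the data gave 137 and 1316 (75th percentile with the block), 447 and 269 (the same without rat 2) and 400 and 386 (normexp with the block). Leaving out 1 rat gave 93 to 934 higher and 52 to 707 lower, with the highest counts (934 and 707) without rat 1. The cause was not tested.

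The share of probes higher in every rat was 2.601% under the 75th percentile, and the share lower in every rat was 3.295% there and 2.617% under normexp. With 1 rat left out the shares were 7.048% to 30.591% and 3.056% to 10.715%, highest without rat 1. Of 647 values of 36 genes, 638 kept their direction, but sizes moved. Most of these genes were chosen for 1 direction over rats, and settings such as the rat as a fixed block leave the difference itself unchanged. Many of these values therefore could not turn, and the count is not evidence of stability. Of 36 genes, 15 had a difference more than 1.5 times smaller, or turned, under the 75th percentile and 16 under normexp, and without rats 1 to 4 in turn 5, 6, 2 and 13 had. *Junb* turned to -0.09 under the 75th percentile and -0.042 under normexp, each with and without the block, and ranged from -0.051 without rat 4 to 0.216 without rat 2. *Gpkow* ranged from -0.062 without rat 4 to 0.378 without rat 2. *Nr4a1* ranged from -0.187 without rat 1 to 0.023 without rat 2, also 0.023 with the block and 0.01 under the 75th percentile with the block, both without rat 2. Of 741 list medians, 711 stayed within 1 SD over rats and 30 moved. That SD is widest for lists on which the rats disagreed, and some settings leave the difference unchanged. This count is therefore not evidence of stability either. The selection rule was also applied here in a version written from its description in the methods. Under this version 0 probes passed, and 1344 passed its ANOVA step alone. Without the ANOVA and adjustment steps, 0 probes were higher and 4 lower. The paper, by its own calculation, lists genes changed in both directions for AI slices with 1 Hz. The 2 calculations may differ in their z-test, so the 0 does not bear on the counts of the paper. The source of the difference was not tested.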
